A study of Mus musculus with 9 samples.

Results

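Interferon-stimulated genes are genes that cells switch on after exposure to an interferon, and the GBP and IRG GTPases are the members of that programme that respond to interferon gamma in particular. The set described here holds 36 genes, chosen by symbol from a fixed list, of 54134 entries in a mouse count table. They were grouped by role into a type I set of 8 genes (Ifit, Oas and Mx families), a GTPase set of 8 genes (Gbp and IRG families), 4 transcription factors, 5 RNA and DNA sensors and 11 other effectors and regulators.

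The messenger RNA of mouse cells labelled HT22 was sequenced after poly(A) selection in 9 libraries, 3 per group. All cells were of wild type genotype, from 1 line that the labels call hippocampal neuronal, and they name HT-4 as its cell type. Control cells had no intervention, Hb cells received oxyhemoglobin (the oxygen-carrying blood protein, released when blood breaks down outside vessels), and Hb+NTR1 cells received oxyhemoglobin together with NTR1, which the series title writes as NGR1. The treatment labels call the Hb+NTR1 samples ganyu, read here as oxyhemoglobin together with NTR1. No group received NTR1 alone, so an effect of NTR1 on untreated cells cannot be told apart from one on oxyhemoglobin-treated cells. Whether replicates were grown as separate cultures is not stated, and p-values here measure only the spread between libraries, which may be technical. Total counts ran from 14369813 to 16893746 per Control library, 13415648 to 14728662 per Hb library and 13945507 to 14280053 per Hb+NTR1 library. Replicate 2 of Hb stood apart: in chi-square comparisons of gene counts its pairs gave 12.97 and 10.7 per degree of freedom, beside 2.51 to 5.10 for the other 7 pairs within groups.

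The label of neuronal cells was checked against 20 neuronal marker genes. Of these, 18 averaged under 1 CPM in Control (CPM are counts scaled to library size), and Snap25, Map2 and Gad1 were at 0 in all 9 libraries. The summed level of these markers was 35.8 to 39.6 CPM in Control, 37.2 to 43.8 in Hb and 8.22 to 11.0 in Hb+NTR1. Most of the sum in Control and Hb was Tubb3, which averaged 32.6, 36.8 and 5.26 CPM in Control, Hb and Hb+NTR1. Only 2 more had counts high enough to test. Camk2a fell from 3.45 CPM in Hb to 0.789 in Hb+NTR1, and Elavl3 rose from 0.475 to 1.92. The summed level of 12 fibroblast markers was 14045 to 14955 CPM in Control, 11308 to 12752 in Hb and 1308 to 1410 in Hb+NTR1. The data thus went against the neuronal label, and the cells are called by the line's name below. In bulk libraries, fewer cells of a type and less RNA per cell cannot be told apart.

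Type I interferons bind a receptor of IFNAR1 and IFNAR2 and act through the kinases JAK1 and TYK2 and a complex with STAT2 and IRF9 that binds the interferon-stimulated response element (ISRE). Interferon gamma binds IFNGR1 and IFNGR2 and acts through JAK1 and JAK2, and its target genes often carry the gamma-activated site (GAS). Many genes carry both elements, and IRF1 also binds ISRE-like sequence, so the programmes overlap. GBP and IRG proteins are GTPases that gather on vacuoles holding pathogens, whereas IFIT, OAS and MX proteins act on viral RNA or capsids.

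The promoters of the members the results turn on are shown so that these elements can be read beside the direction in which each gene moved. RefSeq promoters (build GRCm38.p6, 250 bases before to 50 after each start) were found for 26 of the 36 members, as 30 promoters. Mx1, Mx2, Usp18, Dhx58, Rtp4, Zbp1, Parp9, Parp14, Gbp4 and Gbp6 are named only. The motifs searched were the ISRE core GAAANNGAA on both strands and the GAS TTCNNNGAA, which reads the same on both strands, and matches may overlap. The ISRE core was in 17 of the 30 member promoters (56.7%) and in 8.56% of all 32851 promoters of that length. The GAS was in 9 of 30 (30%) and in 8.30% of all. In the GTPase set 6 of 7 promoters held the ISRE core and 3 held the GAS, and in the type I set 3 of 7 held the ISRE core and 2 held the GAS. A match describes letters only. Each sequence below is printed 5′ to 3′ on the gene's strand with matched bases in capitals. They stand for, in order, 2 GTPase genes that rose with NTR1 (Gbp7 at chr3:142530206-142530335, plus strand, and Gbp3 at chr3:142559914-142560025, plus strand), another that rose (Igtp at chr11:58199426-58199555, plus strand), the GTPase that fell (Tgtp2 at chr11:49064213-49064342, minus strand), and 3 genes of the wider interferon programme (Isg15 at chr4:156200819-156200948, minus strand, Ifit1 at chr19:34640759-34640870, plus strand, and Rsad2 at chr12:26456453-26456582, minus strand).
Gbp7: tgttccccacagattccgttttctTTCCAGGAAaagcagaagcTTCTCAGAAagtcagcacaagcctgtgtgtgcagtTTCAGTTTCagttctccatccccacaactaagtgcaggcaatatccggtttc
Gbp3: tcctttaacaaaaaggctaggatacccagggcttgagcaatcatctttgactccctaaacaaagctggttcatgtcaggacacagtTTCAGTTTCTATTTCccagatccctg
Igtp: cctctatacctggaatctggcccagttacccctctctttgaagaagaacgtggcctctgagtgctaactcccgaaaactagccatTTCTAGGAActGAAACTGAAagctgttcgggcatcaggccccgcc
Tgtp2: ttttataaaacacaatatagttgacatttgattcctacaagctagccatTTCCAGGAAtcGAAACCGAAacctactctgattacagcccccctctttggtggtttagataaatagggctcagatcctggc
Isg15: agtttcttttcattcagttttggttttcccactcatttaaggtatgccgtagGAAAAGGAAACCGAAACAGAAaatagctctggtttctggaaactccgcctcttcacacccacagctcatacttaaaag
Ifit1: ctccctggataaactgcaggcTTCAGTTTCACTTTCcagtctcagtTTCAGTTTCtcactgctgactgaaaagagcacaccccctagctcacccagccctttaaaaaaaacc
Rsad2: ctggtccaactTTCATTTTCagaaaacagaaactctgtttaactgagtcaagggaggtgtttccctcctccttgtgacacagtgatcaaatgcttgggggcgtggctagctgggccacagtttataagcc
The Gbp7 and Igtp windows held both a GAS and an ISRE core, as did that of Tgtp2, whereas those of Isg15 and Ifit1 held 3 ISRE cores each and no GAS. Isg15, Ifit1 and Tgtp2 fell with NTR1, and Gbp7, Gbp3, Igtp and Rsad2 rose. The windows shown were picked with these directions known, so they cannot show whether an element goes with a direction. That was not tested.

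Of the 36 members, 30 had counts high enough to test. Hb+NTR1 differed from Hb at most members, a share near that over all tested genes, and Hb differed from Control at few. In Hb+NTR1 against Hb, 17 tested members rose, 4 fell and 9 were not called (70.0% called), where 62.3% of all 13810 tested genes were called, 30.7% higher and 31.6% lower. A change of at least 2-fold was seen for 13 members (43.3%), 10 up and 3 down, where 16.0% of all genes moved that far, 6.19% up and 9.78% down. Against Control, 18 members rose, 4 fell and 8 were not called (73.3%), where 63.6% of all genes were called, 31.4% higher and 32.2% lower. There 13 members (43.3%) changed at least 2-fold, 10 up and 3 down, where 16.9% of all genes did, 6.89% up and 9.99% down. In Hb against Control, Xaf1 rose, Tgtp2 and Ifi202b fell and 27 members were not called (10.0% called), where 3.65% of all genes were called, 1.88% higher and 1.77% lower. Tgtp2 and Ifi202b fell by at least 2-fold (6.67% of tested members), where 0.369% of all genes changed that far, 0.210% up and 0.159% down.

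Calls used edgeR's quasi-likelihood test across all genes with an adjusted p under 0.05, and a log2 fold change is printed with its standard error (SE). The median log2 fold change of the tested members was 0.47 in Hb+NTR1 against Hb, 0.51 against Control and 0.10 in Hb against Control, where the medians over all genes were -0.011, -0.0042 and 0. The members that passed the count filter only through Hb+NTR1 were Mx2, Gbp4, Zbp1 and Rsad2, and Irf7 passed through Control and Hb+NTR1. Among the 26 members over the filter level in at least 2 groups, 13 rose and 4 fell against Hb. The share called among them was 65.4%, near the 62.3% of all genes. Of the 26, 34.6% changed at least 2-fold, where 16.0% of all genes did. Oasl1, Oas1a, Mx1, Gbp6, Ifi44 and Ifih1 failed the filter.

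**Figure D1:**
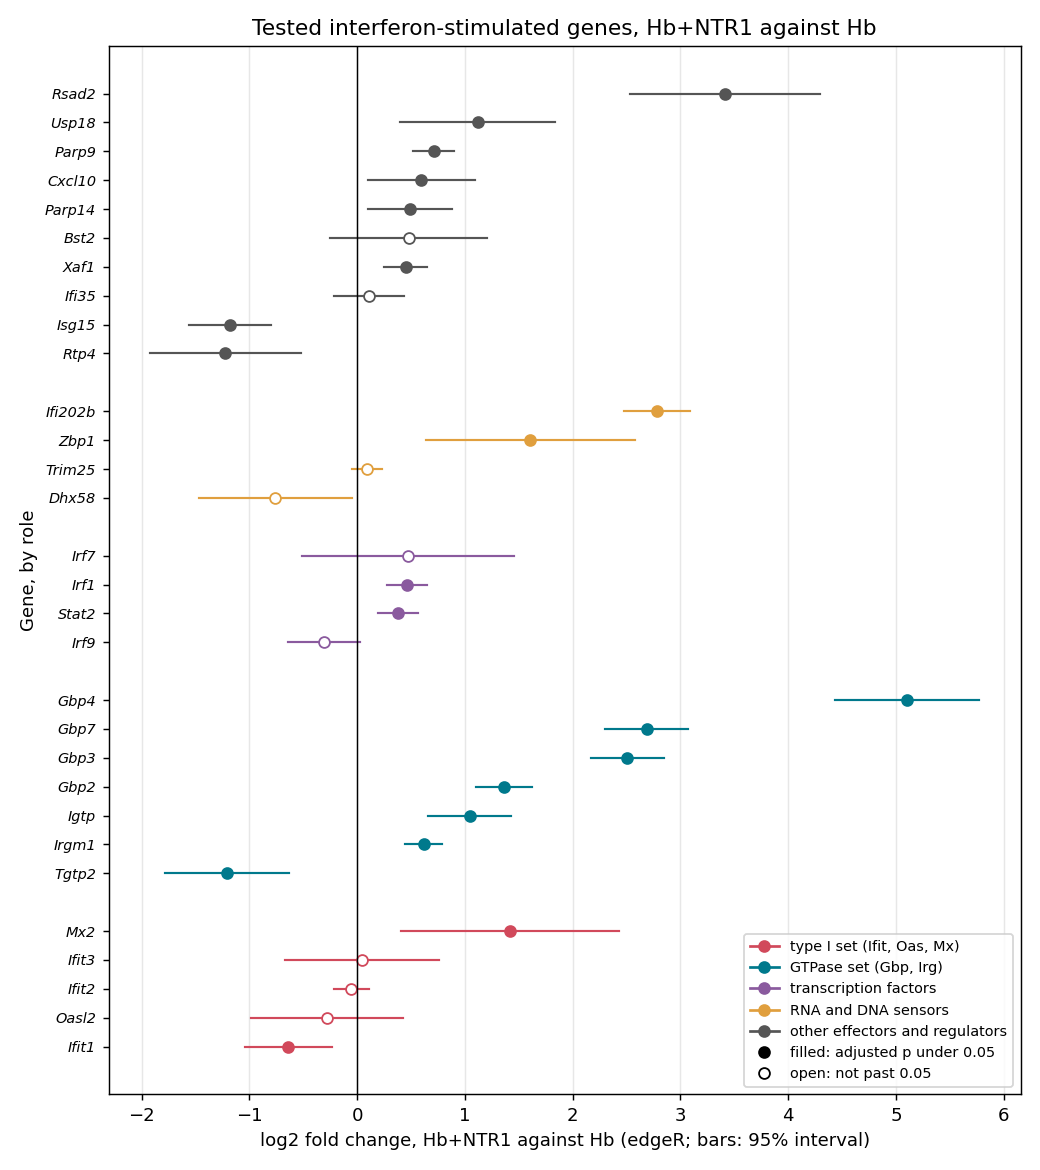
The log2 fold change (dots, with 95% intervals as bars) of each tested member in Hb+NTR1 against Hb, grouped by role, with filled dots for an adjusted p under 0.05. The GTPase rows lie right of 0 apart from Tgtp2 at -1.21, and the type I rows run from Ifit1 at -0.64 to Mx2 at 1.42.

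The GTPase set was higher with NTR1. Of its 7 tested genes, 6 rose in Hb+NTR1 against both other groups and 1, Tgtp2, fell. The share called was 100%, where 62.3% of all tested genes were called against Hb and 63.6% against Control. A change of at least 2-fold was seen for 85.7% against either group, where 16.0% and 16.9% of all genes moved that far. The set's median log2 fold change was 1.36 against Hb and 1.56 against Control. In Hb against Control its median was 0.096, and Tgtp2 alone was called. Gbp4, 1 of the 6 that rose, passed the count filter only through Hb+NTR1, so the filter favoured its rise. The mean log2 shift of the set per library, relative to the Control mean, was 1.23 to 1.400 in the Hb+NTR1 libraries, -0.24 to -0.057 in the Hb libraries and -0.081 to 0.15 in the Control libraries. The summed level of 14 microglia and macrophage markers was 22.2 to 29.4 CPM in Control, 18.1 to 20.1 in Hb and 48.7 to 51.9 in Hb+NTR1. Only 2 of these markers could be tested, and they moved in opposite directions: Cd68 rose from 5.24 CPM in Hb to 45.1 in Hb+NTR1, and Tmem119 fell from 13.3 to 3.33 (20.6 in Control). P2ry12, C1qa, C1qb and Tyrobp were at 0 in all 9 libraries. The summed level of 6 endothelial markers was 1.07 to 1.396 CPM in Control, 0.89 to 1.63 in Hb and 3.51 to 4.11 in Hb+NTR1, with Cldn5 at 0. Summed lymphocyte markers stayed between 0.21 and 0.96 CPM in every library. The part of other cell types in the result was not tested.

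Gbp4, Gbp3, Gbp7 and Gbp2 are guanylate-binding proteins. Gbp4 (chr5:105115767-105139586, GRCm38, GENCODE M21) had 1, 6 and 4 counts in Control, 4, 2 and 7 in Hb, and 164, 167 and 138 in Hb+NTR1. Every Hb+NTR1 library was above every other library. Its log2 fold change against Hb was 5.10 (SE 0.32, edgeR adjusted p = 2.29e-12), a fit that rests on few counts in the low groups.

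Gbp3 (chr3:142560026-142573209) was at 2.35, 2.53 and 2.72 CPM in Control, 3.11, 2.26 and 2.75 in Hb, and 15.1, 15.8 and 15.2 in Hb+NTR1, and its groups did not overlap in either NTR1 comparison. The log2 fold change against Hb was 2.51 (SE 0.16, edgeR adjusted p = 4.22e-12). Gbp7 (chr3:142530342-142550149) was at 3.55, 3.06 and 3.37 CPM in Control, 2.05, 1.71 and 2.67 in Hb, and 15.5, 13.6 and 12.2 in Hb+NTR1. It was lower in every Hb library than in any Control library, by a log2 fold change of -0.64 that was not called (edgeR adjusted p = 0.120). With NTR1 it rose 6.43-fold over Hb (log2 fold change 2.69, SE 0.19, edgeR adjusted p = 1.18e-11). For Gbp7, 12.7% of its 50-base windows also occur in other genes, most of all in the overlapping gene model Gm43802. For Gbp4, 7.70% occur in other genes. The counts of Gbp7 and Gbp4 are uncertain to that extent.

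Gbp2 (chr3:142620602-142638008) lies beside Gbp3 and Gbp7. It was at 11.3, 8.24 and 11.8 CPM in Control, 12.9, 11.8 and 11.4 in Hb, and 34.5, 30.3 and 28.1 in Hb+NTR1. Only the Hb+NTR1 libraries stood apart, with a log2 fold change of 1.36 against Hb (SE 0.12, edgeR adjusted p = 1.59e-09). Gbp6 had 0 counts in each Control library, 0, 1 and 1 in Hb, and 3, 4 and 0 in Hb+NTR1, and 70.7% of its windows occur in other genes.

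Igtp, an IRG that protects against vacuolar parasites, and Irgm1, a regulator of other IRGs, lie on chromosome 11. Igtp (chr11:58199556-58207591) was at 3.55, 3.99 and 5.44 CPM in Control, 4.17, 4.92 and 4.82 in Hb, and 10.3, 10.9 and 7.52 in Hb+NTR1. Its lowest Hb+NTR1 library was above its highest Hb library, and the log2 fold change was 1.05 (SE 0.19, edgeR adjusted p = 3.47e-05). For Igtp, 11.8% of its 50-base windows also occur in other genes, most of all in Irgm2, so its counts are uncertain to that extent. Irgm1 (chr11:48861968-48871683) was the GTPase with the highest level per length in Control (6.81 CPM per kilobase of exon) and had the smallest change against Hb. Its level was 38.8, 40.0 and 39.9 CPM in Control, 31.9, 36.9 and 38.7 in Hb, and 54.0, 57.2 and 53.6 in Hb+NTR1, a rise of 1.53-fold over Hb (SE 0.083 on the log2 scale, edgeR adjusted p = 8.06e-07).

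Tgtp2 (chr11:49057194-49064206), a T-cell-specific GTPase of the IRG family, fell at each step. It was at 5.78, 4.79 and 7.59 CPM in Control, 2.33, 3.21 and 2.82 in Hb, and 1.17, 1.19 and 1.25 in Hb+NTR1. The 3 groups did not overlap. Its log2 fold change was -1.11 in Hb against Control (SE 0.22, edgeR adjusted p = 0.00364), -1.21 in Hb+NTR1 against Hb (SE 0.28, adjusted p = 0.000633) and -2.32 against Control. Without Control replicate 3 the first of these had an adjusted p of 0.0513. Of its 50-base windows 86.6% also occur in other genes, most of all in Tgtp1, so the counts of this pair are uncertain. Tgtp1 itself fell in Hb+NTR1 against Hb by 1.24 on the log2 scale (adjusted p = 0.0399), a call lost without Hb replicate 2 (0.285) or Hb+NTR1 replicate 3 (0.207).

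**Figure D2:**
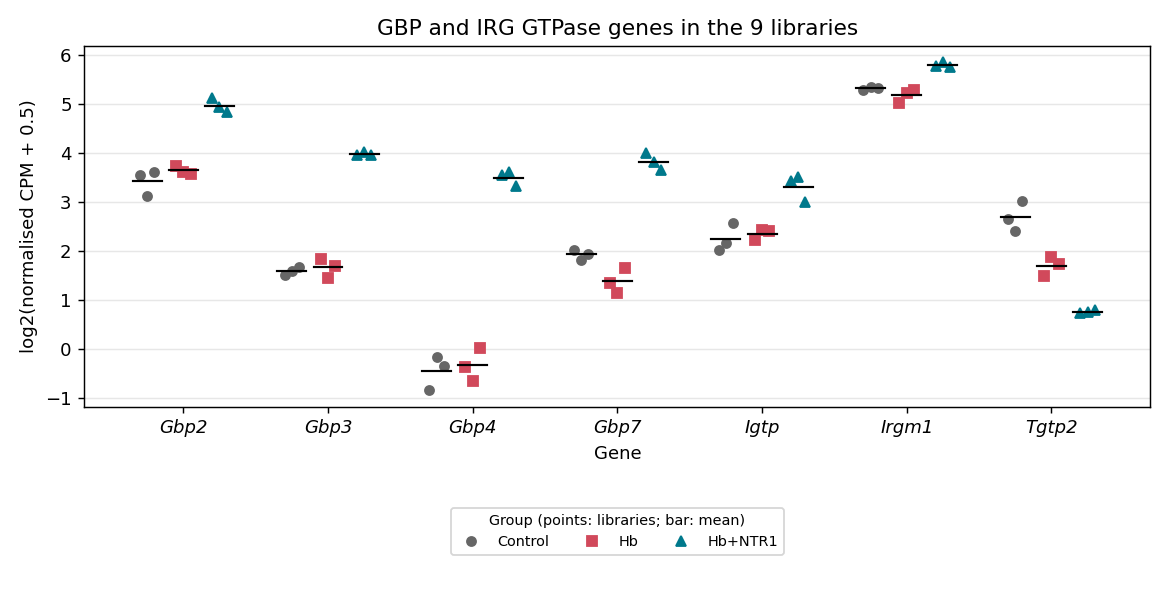
GTPase members in the 9 libraries, as log2 of normalised CPM plus 0.5, with points for libraries and bars for group means. The Hb+NTR1 points lie above the others for Gbp2, Gbp3, Gbp4, Gbp7, Igtp and Irgm1 and below them for Tgtp2.

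The type I set did not move in 1 direction. Of its 5 tested genes, Mx2 rose and Ifit1 fell in Hb+NTR1 against Hb, and Ifit2, Ifit3 and Oasl2 were not called. The share called was 40.0%, where 62.3% of all tested genes were called. The set's median log2 fold change was -0.053 against Hb and 0.28 against Control. In Hb against Control 0 genes of the set were called by edgeR or by DESeq2, at a median of 0.39, with 1 (Mx2) at an unadjusted p under 0.05. Mx2 passed the count filter only through Hb+NTR1, so the filter favoured its rise. The mean log2 shift of the set per library was 0.20 to 0.26 in Hb+NTR1, 0.11 to 0.36 in Hb and -0.069 to 0.080 in Control. No test was made between the sets, because genes are not replicates.

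Ifit1, which binds viral RNA, was at 5.48, 4.72 and 5.30 CPM in Control, 4.59, 5.40 and 5.05 in Hb, and 2.81, 3.79 and 3.06 in Hb+NTR1. Every Hb+NTR1 library was below every Hb library. The log2 fold change was -0.64 (SE 0.20, edgeR adjusted p = 0.00684). Ifit2, of the same family, had the highest level per length of all members in Control (21.4 CPM per kilobase) and was at 83.9 ± 4.15, 83.6 ± 9.90 and 80.6 ± 1.84 CPM (mean ± SD, n = 3) in Control, Hb and Hb+NTR1. Its log2 fold change of -0.053 against Hb had a 95% interval of -0.21 to 0.11. Ifit3 (0.997, 1.30 and 1.34 CPM on average) and Oasl2, an OAS-like protein (1.72, 2.53 and 2.08), were not called. For Ifit3, 51.2% of the windows also occur in other genes, most of all in Ifit3b.

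Mx2, a dynamin-like antiviral GTPase annotated in this genome as a polymorphic pseudogene, had 3, 2 and 1 counts in Control, 3, 10 and 4 in Hb, and 17, 18 and 12 in Hb+NTR1. Its Hb+NTR1 libraries were above all Hb libraries. The log2 fold change was 1.42 (SE 0.49, edgeR adjusted p = 0.0146). This call was lost without Hb replicate 1 (adjusted p = 0.0796), Hb replicate 3 (0.0627), Hb+NTR1 replicate 1 (0.0503) or Hb+NTR1 replicate 2 (0.0653). Against Control the log2 fold change was 2.97 (adjusted p = 0.000134). Oasl1 had 0 to 10 counts per library, Oas1a 3 to 8, and Mx1 0 to 4.

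**Figure D3:**
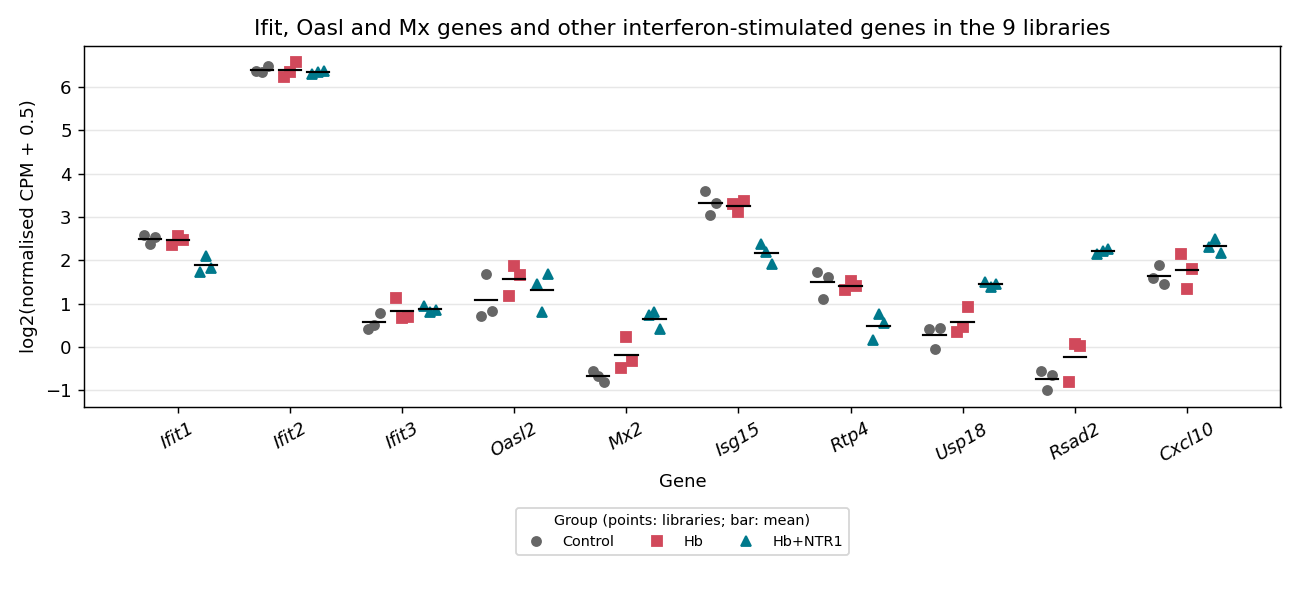
The 5 tested type I genes and Isg15, Rtp4, Usp18, Rsad2 and Cxcl10 in the 9 libraries, as log2 of normalised CPM plus 0.5, with points for libraries and bars for group means. Hb+NTR1 points are lowest for Ifit1, Isg15 and Rtp4 and highest for Mx2, Usp18, Rsad2 and Cxcl10, and those of Ifit2 overlap with Hb and Control.

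Among the transcription factors, Irf1 and Stat2 rose with NTR1, and Irf7 and Irf9 were not called. Irf1, which drives many GBP genes, was at 29.8, 30.3 and 34.4 CPM in Control, 31.3, 33.5 and 35.8 in Hb, and 46.9, 49.1 and 42.7 in Hb+NTR1. The Hb+NTR1 libraries were all above the others, with a log2 fold change against Hb of 0.46 (SE 0.089, edgeR adjusted p = 8.47e-05). Stat2, a subunit of the ISRE-binding complex, was at 28.3, 25.7 and 26.3 CPM in Control, 33.3, 29.9 and 35.7 in Hb, and 45.7, 40.0 and 42.7 in Hb+NTR1, and its groups did not overlap. It rose against Hb by 0.38 on the log2 scale (SE 0.090, adjusted p = 0.000827). In Hb against Control its log2 fold change was 0.30 (adjusted p = 0.0798), which was called without Hb replicate 2 (adjusted p = 0.0108). Irf9, the DNA-binding subunit of that complex, had a log2 fold change of -0.31 against Hb (adjusted p = 0.105), which was called without Hb+NTR1 replicate 1 (0.0471). Irf7, the amplifier of type I interferon genes, was at 0.34 to 1.15 CPM in every library.

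Of the sensors, Ifi202b, a DNA-binding protein of the Ifi200 family on chromosome 1 (chr1:173962568-173982744), moved most. It was at 9.27, 13.1 and 11.9 CPM in Control, 3.39, 4.31 and 3.78 in Hb, and 25.9, 25.1 and 28.4 in Hb+NTR1. The 3 groups did not overlap, and Hb was the lowest. It fell by 1.57 on the log2 scale in Hb against Control (SE 0.16, edgeR adjusted p = 8.92e-07), and its log2 fold change in Hb+NTR1 against Hb was 2.79 (SE 0.15, adjusted p = 8.74e-14) and against Control 1.22 (SE 0.13, adjusted p = 1.06e-08).

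Zbp1, a sensor of Z-form nucleic acids that can trigger necroptosis, had 17, 5 and 8 counts in Control, 3, 8 and 8 in Hb, and 24, 19 and 17 in Hb+NTR1. It passed the count filter only through Hb+NTR1, so the filter favoured its rise. Its log2 fold change was 1.61 against Hb (SE 0.47, edgeR adjusted p = 0.00478). Against Control it was 1.08 (adjusted p = 0.0335), a call lost without Control replicate 2 (0.159) or 3 (0.0901), without Hb+NTR1 replicate 1 (0.127) or 2 (0.0698), with no filter (0.0647) and with DESeq2 (0.0597).

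Trim25, a ubiquitin ligase that activates RIG-I, was at 63.8, 65.0 and 64.9 CPM in Control, 75.1, 67.3 and 74.2 in Hb, and 77.9, 75.4 and 77.3 in Hb+NTR1. It was called only in Hb+NTR1 against Control (log2 fold change 0.25, edgeR adjusted p = 0.00286). Dhx58, which encodes LGP2, was at 2.75, 2.78 and 1.65 CPM on average, and its log2 fold change of -0.76 against Hb was not called (adjusted p = 0.0583). Alternatives moved it past the threshold, among them no filter (0.0306) and leaving out Hb replicate 3 (0.0458) or Hb+NTR1 replicate 2 (0.0241). Ifih1, which encodes the RNA sensor MDA5, had 0 counts in all 9 libraries, which allows up to 3 counts per library, or 0.178 to 0.224 CPM.

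**Figure D4:**
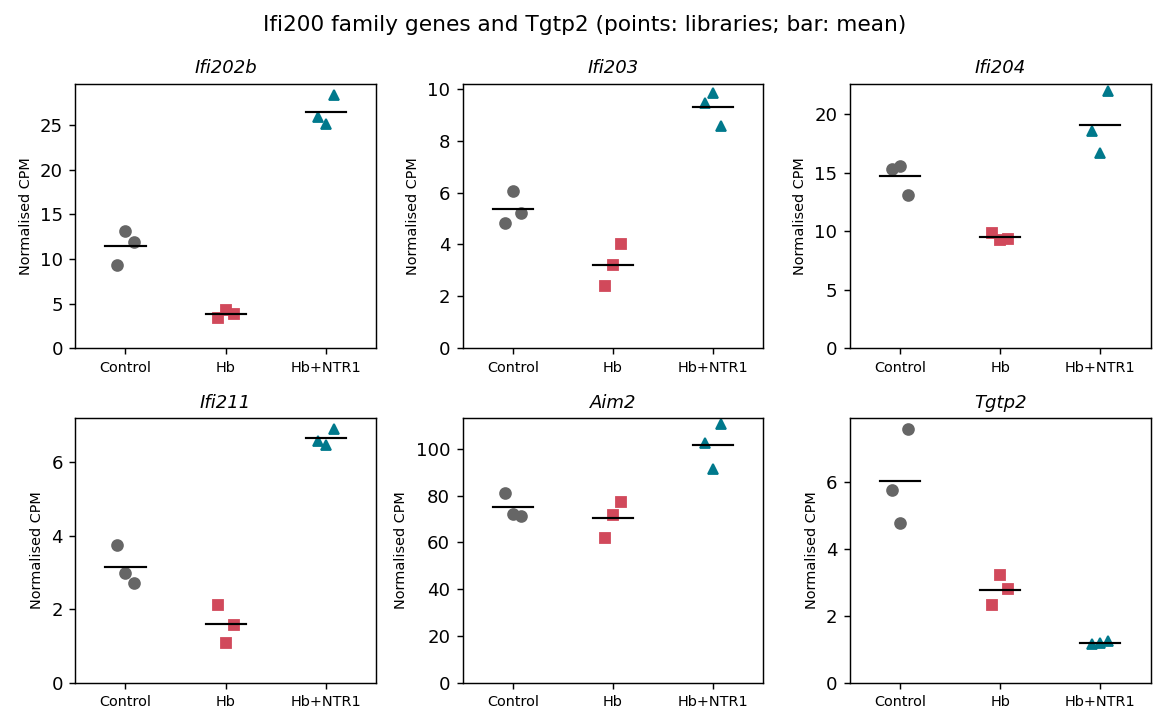
Ifi202b, 4 other Ifi200 genes and Tgtp2 by group, on linear axes of normalised CPM from 0, with points for libraries and bars for group means. Hb libraries are lowest and Hb+NTR1 libraries highest for Ifi202b, Ifi203, Ifi204 and Ifi211, whereas Tgtp2 falls from Control to Hb to Hb+NTR1.

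The other effectors and regulators split: Usp18, Rsad2, Xaf1, Parp9, Parp14 and Cxcl10 rose in Hb+NTR1 against Hb, Isg15 and Rtp4 fell, and Bst2 and Ifi35 were not called. Of the 10 tested, 80.0% were called, where 62.3% of all genes were. Isg15 is a ubiquitin-like protein and Usp18 is the protease that removes it. Isg15 was at 11.7, 7.71 and 9.60 CPM in Control, 9.32, 8.20 and 9.87 in Hb, and 4.73, 4.07 and 3.27 in Hb+NTR1. Its Hb+NTR1 libraries were all lowest, with a log2 fold change against Hb of -1.18 (SE 0.18, edgeR adjusted p = 6.06e-06). Usp18 was at 0.843, 0.465 and 0.859 CPM in Control, 0.777, 0.888 and 1.41 in Hb, and 2.33, 2.11 and 2.23 in Hb+NTR1. It rose by a log2 fold change of 1.12 against Hb (SE 0.35, adjusted p = 0.00744).

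Rsad2, which encodes the antiviral enzyme viperin, had 3, 0 and 2 counts in Control, 1, 8 and 7 in Hb, and 57, 59 and 62 in Hb+NTR1. Every Hb+NTR1 library was above the rest. The log2 fold change was 3.42 against Hb (SE 0.43, edgeR adjusted p = 2.31e-07) and 5.13 against Control, fits that rest on few counts in the low groups. Rsad2 passed the count filter only through Hb+NTR1, so the filter favoured its rise. Rtp4, an interferon-induced transporter of receptor proteins, was at 2.83, 1.66 and 2.58 CPM in Control, 1.98, 2.39 and 2.15 in Hb, and 0.617, 1.19 and 0.975 in Hb+NTR1. Its Hb+NTR1 libraries were the lowest, with a log2 fold change of -1.22 against Hb (SE 0.34, adjusted p = 0.00305). For Rtp4, 11.6% of its 50-base windows also occur in other genes, most of all in the overlapping gene model Gm45338.

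Parp9, a partner of the ubiquitin ligase Dtx3l, was at 22.3, 20.9 and 21.1 CPM in Control, 25.1, 21.9 and 27.2 in Hb, and 39.6, 40.0 and 41.6 in Hb+NTR1. The log2 fold change was 0.71 against Hb (SE 0.093, edgeR adjusted p = 4.67e-07), and 458 bases of its exons overlap Dtx3l on the other strand, which cannot be separated without strand information. Xaf1, a pro-apoptotic protein, was at 15.8, 16.5 and 15.0 CPM in Control, 21.9, 18.7 and 20.3 in Hb, and 28.0, 27.6 and 27.6 in Hb+NTR1, with no overlap between groups. It rose by 0.36 on the log2 scale in Hb against Control (SE 0.10, adjusted p = 0.0456) and by 0.45 in Hb+NTR1 against Hb (SE 0.098, adjusted p = 0.000342). The first call was lost in the 6 libraries alone (0.102), with no filter (0.0753) and without any 1 of Control replicates 1, 2 and 3 (0.129, 0.0969 and 0.192), Hb replicate 1 (0.175) or Hb replicate 3 (0.0834).

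Cxcl10, a chemokine, was at 2.53, 3.19 and 2.22 CPM in Control, 3.96, 2.05 and 2.97 in Hb, and 4.45, 5.13 and 3.97 in Hb+NTR1. The log2 fold change against Hb was 0.60 (SE 0.24, edgeR adjusted p = 0.0351), lost without Hb replicate 2 (0.182) or 3 (0.0682) or Hb+NTR1 replicate 1 (0.0641) or 2 (0.129). Parp14, an ADP-ribosyltransferase, was at 4.40, 6.91 and 5.23 CPM in Control, 4.38, 5.54 and 5.79 in Hb, and 7.33, 6.25 and 8.42 in Hb+NTR1. It rose against Hb (log2 fold change 0.49, adjusted p = 0.0287), a call lost without Hb replicate 1 (0.126), Hb+NTR1 replicate 1 (0.0579) or Hb+NTR1 replicate 3 (0.139). Ifi35 was at 9.63, 6.05 and 9.95 CPM in Control, 10.7, 11.1 and 10.5 in Hb, and 11.2, 13.5 and 10.4 in Hb+NTR1, and rose only against Control (log2 fold change 0.45, adjusted p = 0.0176), a call lost without Control replicate 2 (0.157) or Hb+NTR1 replicate 2 (0.113). Bst2, a tether of budding virus, ranged from 1.06 to 2.89 CPM, and Ifi44 had 0 to 4 counts per library.

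The ligands of the pathway had almost no counts. None of the 21 interferon genes could be tested: Ifng had 0 counts in all libraries, Ifnb1 had 4 in total, and the highest, Ifnz, had 12. Of 9 tested receptor and JAK-STAT genes, 8 rose in Hb+NTR1 against Hb, 8 rose against Control and 0 were called in Hb against Control by edgeR or by DESeq2, with 1 (Jak1) at an unadjusted p under 0.05. The share called was 88.9% against either group, where 62.3% of all genes were called against Hb and 63.6% against Control. Against Hb the interferon gamma receptor chains rose most, and against Control Ifngr2 and Jak2 did: Ifngr1 was at 49.0 ± 2.06, 45.9 ± 1.28 and 94.2 ± 2.15 CPM (mean ± SD, n = 3) in Control, Hb and Hb+NTR1, with a log2 fold change of 1.04 against Hb (adjusted p = 8.29e-12). Ifngr2 was at 41.5, 38.6 and 90.9 CPM and rose by 1.23 (adjusted p = 2.29e-12). Ifnar1 was at 70.4, 63.8 and 111 CPM and rose by 0.80 (adjusted p = 5.16e-10), whereas Ifnar2 was at 12.8, 11.5 and 11.1 and was not called. The kinase Jak2 went from 58.0 CPM in Hb to 109, and Jak1, Tyk2, Stat3 and Il10rb also rose. The call of Il10rb (adjusted p = 0.0482) was lost without Hb replicate 1 or 3, without any single Hb+NTR1 replicate, in the 6 libraries alone, with no filter and with DESeq2.

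**Figure D5:**
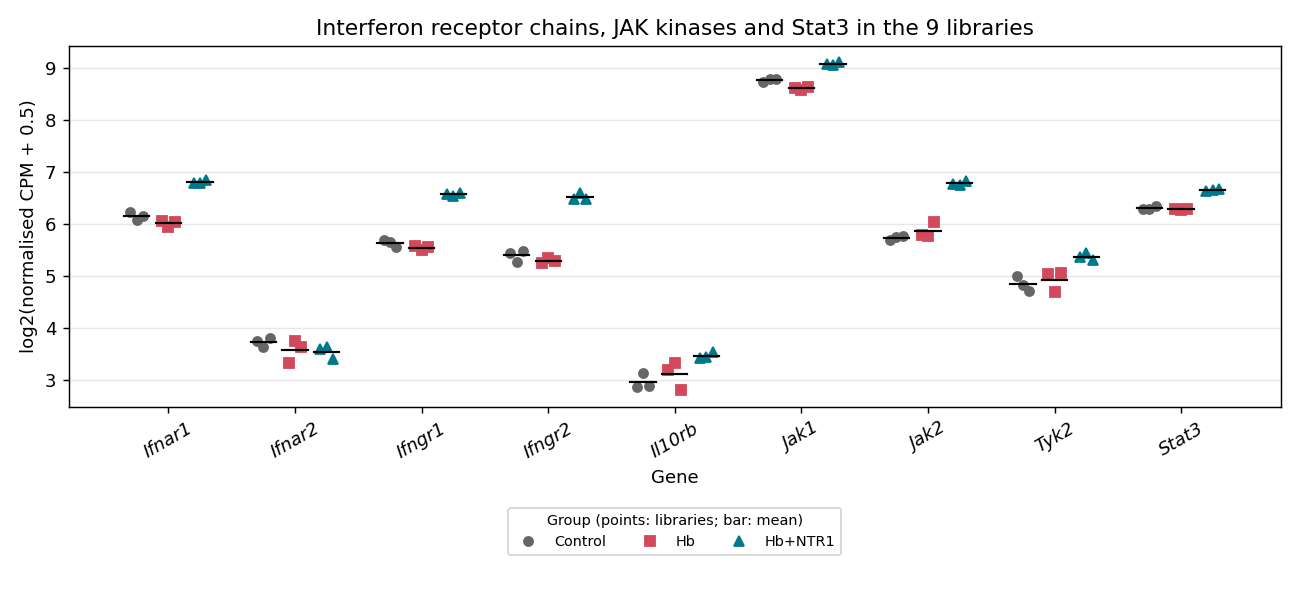
Interferon receptor and JAK-STAT genes in the 9 libraries, as log2 of normalised CPM plus 0.5, with points for libraries and bars for group means. The Hb+NTR1 points lie above the others for Ifngr1, Ifngr2, Ifnar1 and Jak2. For Ifnar2 they overlap the Hb points and lie below the Control points.

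Of 10 tested upstream sensors, adaptors and kinases, 5 rose and 3 fell against Hb (80.0% called, beside 62.3% of all genes, 30.7% higher and 31.6% lower). Ddx58, which encodes the RNA sensor RIG-I, was at 36.03, 32.6 and 77.4 CPM and rose by a log2 fold change of 1.25 (edgeR adjusted p = 1.88e-12). Tlr3, Mb21d1 (cGAS), Tmem173 (STING) and Tbk1 also rose, and Ikbke, Ticam1 and Traf3 fell. The call of Tbk1 (log2 fold change 0.19) was lost without Hb+NTR1 replicate 1 and with no filter. Of 11 tested negative regulators, Socs1, Socs3, Ptpn1, Ptpn2, Pias1, Irf2 and Irf2bp2 rose and Samhd1 fell against Hb (72.7% called, beside 62.3% of all genes), and 0 changed by 2-fold, where 16.0% of all genes did. The call of Ptpn1 was lost without Hb+NTR1 replicate 3, and that of Irf2 with no filter, in the 6 libraries alone and without Hb replicate 1, Hb+NTR1 replicate 2 or 3.

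Of 8 tested other GBP and IRG genes, 6 rose against Hb and Tgtp1 fell, at a median log2 fold change of 2.50, and 87.5% were called and changed at least 2-fold, where 16.0% of all genes did. Gbp9 went from 2.18 ± 0.50 CPM in Hb to 10.8 ± 2.40 in Hb+NTR1 (mean ± SD, n = 3), a log2 fold change of 2.31 (edgeR adjusted p = 6.72e-09). Irgm2 went from 6.11 to 13.2, Iigp1 from 0.884 to 5.74, and Gbp10, Gm4951 and Gm12250 rose from at most 5 counts in any Hb library. Gbp10, Gm4951 and Gm12250 averaged at most 0.50 CPM in Control and Hb, below the filter level of 0.70 CPM. They passed the filter only through Hb+NTR1, so the filter favoured their rise, and the share and median above include them. Windows shared with other genes were computed for the members only. Exons of Gbp9 overlap those of the member Gbp4, and exons of Irgm2 overlap those of the member Igtp. Of 4 tested other Ifi200 genes, all 4 rose against Hb, where 62.3% of all genes were called, 30.7% higher. Ifi203, Ifi204 and Ifi211 fell in Hb against Control (75.0% called, where 3.65% of all genes were, 1.77% lower). Ifi204 was at 14.7, 9.49 and 19.1 CPM, falling by 0.63 on the log2 scale in Hb (adjusted p = 0.00465). The fall of Ifi203 was lost without Control replicate 2 or 3, Hb replicate 1 or in the 6 libraries alone, and that of Ifi211 without Control replicate 1 or 2, Hb replicate 2 or 3 or in the 6 libraries alone. Aim2, the DNA sensor of the inflammasome, rose from 70.4 CPM in Hb to 102 in Hb+NTR1 and was not called in Hb against Control.

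Of 25 tested other interferon-stimulated genes, 12 rose and 6 fell against Hb. The shares called (72.0%) and changed at least 2-fold (16.0%) were near those over all genes (62.3% and 16.0%). The falls were Ifi27l2a, Ifitm2, Ifitm3, Trim30a, Isg20 and Apol9b. Ifitm3, a membrane protein that blocks virus entry, went from 96.6 CPM in Hb to 48.7 in Hb+NTR1 (log2 fold change -0.99, edgeR adjusted p = 1.06e-09). Trim21, an antibody receptor in the cytosol, rose from 8.30 to 22.3 and Herc6, an ISG15 ligase in mice, from 11.0 to 21.1. Oas1b, an Oas gene outside the type I set, rose from 0.66 CPM in Hb to 1.92 in Hb+NTR1. Its log2 fold change was 1.52 (edgeR adjusted p = 0.00213), and Ifit3b, an Ifit gene outside that set, was not called. Lgals9 was the 1 call in Hb against Control, lower by 0.38 on the log2 scale.

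The authors' deposited table of Hb+NTR1 against Control, which lists 691 genes, holds 6 members. Its smallest absolute log2 fold change was 2.0046 and its largest adjusted p, by the authors' test, was 0.00994. Genes that moved less are thus absent from it, unlike from the calls given here. In the authors' deposited table Gbp4 had a log2 fold change of 5.49, Rsad2 5.24, Mx2 3.06, Gbp3 2.61, Gbp7 2.05 and Tgtp2 -2.33.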

How the data were processed

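Poly(A) messenger RNA of 9 libraries was sequenced, and per the submitters' processing notes the tools were bcl2fastq 2.19.1.403, HISAT2 2.1.0 and HTSeq 0.10.0 on GRCm38. The annotation release, strandedness and multi-mapped reads were not given in the sources used here. The deposited table holds raw counts per gene symbol; 98 exact repeats among 54232 entries were removed. The authors' deposited comparison table gives log2 fold changes and p-values by a test that is not given. Columns starting in N were taken as Hb+NTR1, because the authors' table of that group holds only N and C columns. Genes were kept by filterByExpr (minimum count 10), scaled by TMM and fitted in edgeR 4.0.16 (R 4.3.3) over all 9 libraries with group as the only term. The quasi-likelihood F test was two-sided, with Benjamini-Hochberg adjustment over 13810 genes and a threshold of 0.05. The common biological coefficient of variation was 6.90%. CPM are normalised by TMM, and figures use a pseudocount of 0.5. Positions, lengths and shared 50-base windows came from GENCODE M21. The fit was tested on simulated data. Alternatives were DESeq2 1.42.0, its size factors, library totals, other filters, the 6 libraries compared, a replicate block and each library left out. Each member and pathway gene was named by a rule: called members by library, others by range, called pathway genes by name. The members and lists were chosen with earlier results of these data known. 1 gene of the receptor list is not reported here.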

Additional observations from a re-analysis of the deposited data

How the results depend on the processing

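Calls of members in Hb+NTR1 comparisons stayed close in number: 14 to 17 higher and 4 to 5 lower against Hb, 17 to 19 higher and 4 to 5 lower against Control over all alternatives. In Hb against Control the members called higher were 1, became 2 with library totals or the replicate block, 0 with no filter or in the 6 libraries compared, and 0 to 2 with a library left out (2 without Hb replicate 2). Those called lower were 2, and 1 to 2 with a library left out. The GTPase median log2 fold change was 1.47 against Hb and 1.79 against Control with no filter, and with a library left out it ranged from 1.42 to 1.66 against Control and from -0.20 to 0.15 in Hb against Control. The type I median was 0.67 in Hb against Control with no filter, 0.19 with at least 1 CPM in 3 libraries or in the 6 libraries, and 0.15 to 0.49 with a library left out. Against Control in Hb+NTR1 it was 0.47 with no filter, 0.11 with the 1 CPM filter and 0.038 to 0.48 with a library left out. The cause of these shifts was not tested. Same-numbered libraries did not pair: their deviations correlated at -0.045 to 0.12, and 1 to 2 of 3 correlated best with their own number, so the replicate block was only an alternative. The block also moved Stat2 in Hb against Control (adjusted p = 0.0479), Dhx58 against Hb (0.0478) and Parp14 against Control (0.0428) past the threshold.

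Sign changes were limited to members not called. With library totals alone, Ifit2 was at 0.034 in Hb against Control and 0.0055 in Hb+NTR1 against Control, and Irf9 at 0.049 there. With no filter, Dhx58 was at -0.0022 in Hb against Control. With a library left out, Hb against Control gave Ifit1 -0.11 to 0.015, Ifit2 -0.10 to 0.065, Gbp3 -0.018 to 0.21, Gbp4 -0.21 to 0.87, Igtp -0.021 to 0.30, Irf7 -0.72 to 0.041, Dhx58 -0.29 to 0.45, Zbp1 -0.84 to 0.00014, Isg15 -0.23 to 0.077, Cxcl10 -0.086 to 0.39, Rtp4 -0.32 to 0.041 and Parp14 -0.22 to 0.12. Hb+NTR1 against Hb gave Ifit2 -0.13 to 0.043 and Ifit3 -0.070 to 0.28. Hb+NTR1 against Control gave Irf7 -0.11 to 0.51, Irf9 -0.14 to 0.13 and Bst2 -0.29 to 0.43. Depth limits the genes with few counts: Mx2, Gbp4, Zbp1, Rsad2, Gbp10, Gm4951 and Gm12250.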

Other observations

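Neighbouring IRG genes on chromosome 11 moved in opposite directions. Irgm1 (start 48861968) rose with NTR1, while Tgtp1 (start 48985327), Tgtp2 (start 49057194) and Ifi47 (start 49076587) were lower against Control, with log2 fold changes of -1.82, -2.32 and -0.75 (edgeR adjusted p = 0.00222, 2.62e-08 and 0.0461). The call of Ifi47 was lost without Control replicate 1 or 3, without Hb+NTR1 replicate 2 or 3, with library totals alone and with DESeq2. On the same chromosome Igtp (start 58199556) and Irgm2 (start 58199618), whose annotated exons overlap by 162 bases, both rose. On chromosome 3 the neighbours Gbp7, Gbp3 and Gbp2 rose together.

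Some interferon-stimulated genes had next to no counts in any group. Trex1 and Epsti1 had 0 counts over all 9 libraries, as did Ifih1, Cmpk2, Parp12 and Cxcl9 had 1 each, Cxcl11 had 2, Oas2 had 9 and Oas3 had 12. Cmpk2 lies beside Rsad2, which had 57 to 62 counts in each Hb+NTR1 library.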
